A study of Mus musculus with 9 samples.

Results

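Hearts from mouse embryos homozygous for the R567W allele of *Ctcf* were compared with wild-type hearts across every gene that averaged 1 TPM or more over the 6 libraries involved. TPM is a gene's share of the transcripts in a library, corrected for transcript length and brought to the same total in each library. Of 24571 gene symbols used, 13657 met this rule and were tested. At the edge of the rule, *Cd101* and *Chrd* averaged 1 TPM and were kept, and *Glis3* and *Muc1*, at 0.998 TPM, were not.

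CTCF binds DNA through an array of zinc fingers and, together with the ring-shaped cohesin complex, sets the borders of chromatin loops and domains. Loop borders influence which enhancers a promoter can reach, and clustered gene families such as the protocadherins depend on CTCF sites for the choice of promoter. The late fetal heart is a beating organ made mainly of cardiac muscle, with endocardium, epicardium, fibroblasts, smooth muscle and macrophages, and it prepares for the shift from glycolysis to fatty acid oxidation that follows birth.

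The study collected hearts at E18.5, shortly before birth, from C57BL/6N mice in which the arginine-to-tryptophan substitution had been introduced by CRISPR editing. The allele was carried by the whole embryo rather than by heart cells alone. Poly-A RNA was sequenced from 3 wild-type, 3 heterozygous and 3 homozygous hearts. Each heart was stored in its own tube, but litters, dams and the number of founder animals were not given in the sources used here, so p-values measure the spread between these libraries. In whole hearts, fewer cells of a type and less RNA per cell cannot be told apart. By *Xist* and 4 Y-linked genes, 1 embryo of each compared group was female and 2 were male, whereas all 3 heterozygous embryos were female.

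The libraries were cardiac by their markers. The 7 heart muscle markers summed to between 40209 and 42962 TPM in wild-type hearts and between 30596 and 42873 TPM in homozygous hearts, with the lowest sum in homozygous replicate 3. A pair of libraries stood apart. Homozygous replicate 3 held 346 TPM of 5 thymocyte markers, against 0.51 to 1.93 TPM in the other 5 libraries, with *Cd8a* at 92.5 TPM and *Rag1* at 92.4 TPM. Wild type replicate 1 held 249 TPM of 4 lung and airway markers, against 0.06 to 7.47 TPM in the others, led by *Scgb1a1* at 159 TPM. Red cell markers were also uneven, at 6533, 7799 and 1495 TPM in wild-type hearts and 2200 to 2835 TPM in homozygous hearts. Liver markers reached 51.3 TPM in wild type replicate 1 and 12.1 to 23.97 TPM in the other libraries, and brown fat markers stayed between 7.13 and 13.4 TPM.

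*Ctcf* transcript levels were not lower in homozygous hearts. *Ctcf* measured 27.0, 28.9 and 34.3 TPM in wild-type hearts and 38.9, 41.4 and 50.2 TPM in homozygous hearts, so the groups did not overlap and every homozygous heart lay above every wild-type heart. The log2 difference was 0.52 ± 0.14 (SE, n = 3 per group) as deposited, with an adjusted p of 0.106 from limma, and 0.27 ± 0.13 after median-ratio scaling, with an adjusted p of 0.296. An amino-acid substitution need not change the amount of transcript, so these values do not check the genotype labels. Of the 21 tested genes for CTCF, cohesin and their partners, 12 were higher without overlap as deposited, where 22.4% of all genes were, and 5 after scaling, where 9.58% were, among them *Wapl*, which releases cohesin from DNA, and *Pds5b*, which binds cohesin. The median of that list was 0.19 above that of all genes on the log2 scale, and 0.07 above it without wild type replicate 1 and homozygous replicate 3.

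Most genes measured higher in the homozygous libraries as deposited. The median log2 change over the 13657 genes was 0.23, and 81.9% of genes lay above 0. In TPM each library has the same total, so the level of every gene depends on the share taken by the most abundant transcripts. The 100 most abundant genes took 57.8%, 58.1% and 53.04% of the wild-type libraries and 51.3%, 50.3% and 56.4% of the homozygous libraries. Mitochondrially encoded genes took 27.2%, 27.7% and 24.5% in wild-type hearts and 22.4%, 22.2% and 27.8% in homozygous hearts, and the groups overlapped. The shift differed by library pair, from a median log2 of 0.40 between homozygous replicate 2 and wild type replicate 1 to -0.05 between the replicates numbered 3. With each library brought to a common total without mitochondrially encoded and haemoglobin genes, the median log2 change over all genes was 0.19. Only symbols that begin with mt- were counted as mitochondrially encoded. Abundant predicted genes such as *Gm28661* and *Gm10222*, at means of 41029 and 25018 TPM, stayed in that total. Whether they hold reads of mitochondrial sequence was not tested. Median-ratio scaling, which divides each library by its typical ratio to the mean library, brought the median to 0.01 and the share above 0 to 51.4%.

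The shift depended on abundance, and scaling did not remove that dependence. Genes with a mean of 1 to 5 TPM had a median log2 change of 0.28 as deposited, and the 944 genes of 100 TPM or more had 0.06. After scaling the same classes stood at 0.11 and -0.19, and 13.5% of the most abundant class lay above 0. By transcript length the scaled median ran from -0.05 in the shortest of 5 equal classes of genes to 0.09 in the longest, and by GC content it stayed between -0.01 and 0.03. Lists of abundant genes are therefore given below against the median of their own abundance class as well as against all genes, a reference chosen after the data were seen.

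**Figure D1:**
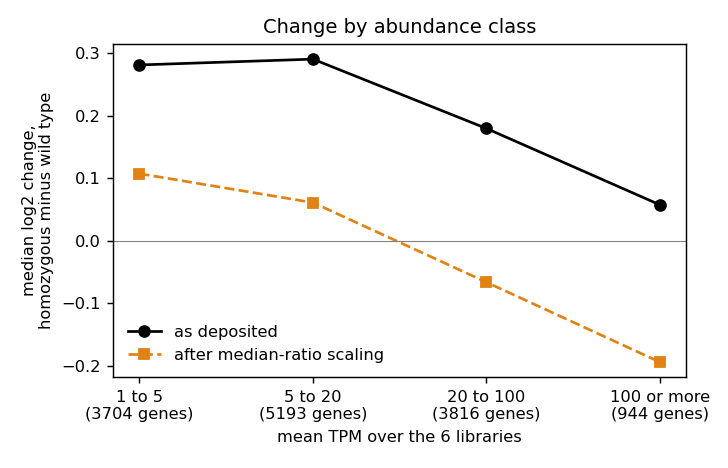
Median log2 change of (TPM + 1), homozygous minus wild type, for genes in 4 classes of mean TPM, as deposited (circles) and after median-ratio scaling (squares). Both lines fall towards the abundant genes, from 0.28 to 0.06 as deposited and from 0.11 to -0.19 after scaling.

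A small set of genes separated the genotypes on the deposited values. A gene was called at an adjusted p under 0.05 in limma, fitted to all 9 libraries. As deposited 46 genes were called, 0.337% of those tested, of which 26 were higher (0.19%) and 20 lower (0.146%) in homozygous hearts. Without overlap between the groups there were 3382 genes (24.8%), with 3058 higher (22.4%) and 324 lower (2.37%), and 3446 genes (25.2%) had an unadjusted p under 0.05. After median-ratio scaling 246 genes were called (1.8%), 40 higher (0.293%) and 206 lower (1.51%). Without overlap there were then 3062 genes (22.4%), with 1309 higher (9.58%) and 1753 lower (12.8%), and 2562 genes (18.8%) had an unadjusted p under 0.05. Both scales shared 44 called genes (0.322%), and 248 were called on at least 1 of them (1.82%). The split thus turned with the scale: 56.5% of calls were higher as deposited and 16.3% after scaling.

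The counts leaned on the shared estimate of spread. With only the 6 compared libraries in the fit, 17 genes were called as deposited and 20 after scaling, and leaving out 1 library at a time gave 13 to 2171 and 29 to 418. The lowest counts came without wild type replicate 2 and the highest without wild type replicate 3, whose top 100 genes took the smallest share of its group. All 46 genes kept their direction in every setting tried, and 12 of them were called in every setting that tested them: *Serpinb9*, *Gm20186*, *Sfrp5* and *Zfp579* among those higher, and *Serpinb6b*, *Spp1*, *Pcdhga2*, *Man2b2*, *Tstd3*, *S100a1*, *Gm12854* and *Gm13532* among those lower.

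**Figure D2:**
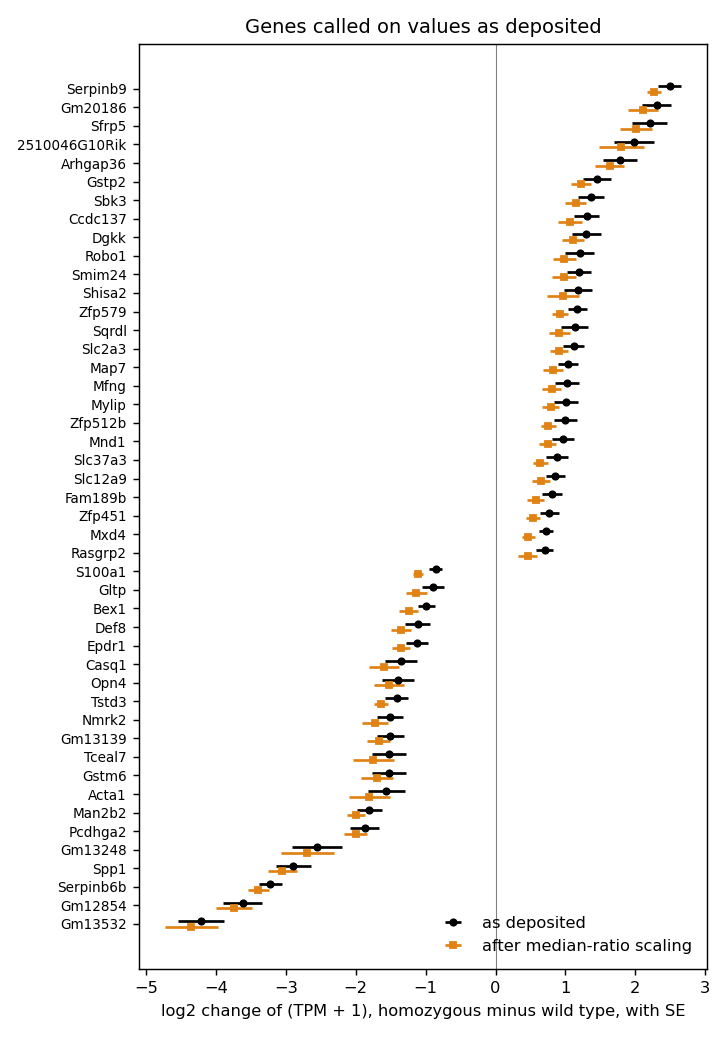
Log2 change of (TPM + 1), homozygous minus wild type, with its SE for the 46 genes called on deposited values, as deposited (circles) and after median-ratio scaling (squares). Scaling moved each gene towards lower values, by 0.13 to 0.25, and no gene crossed 0.

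A pair of neighbouring serpin genes on chromosome 13 moved in opposite directions. *Serpinb9* encodes an intracellular inhibitor of the cytotoxic protease granzyme B, and *Serpinb6b* a related intracellular protease inhibitor. *Serpinb9* measured 3.13, 3.28 and 4.43 TPM in wild-type hearts and 27.6, 26.6 and 20.5 TPM in homozygous hearts, a log2 change of 2.49 ± 0.16 (SE, n = 3 per group; limma adjusted p = 0.00011). *Serpinb6b* measured 15.7, 12.9 and 14.9 TPM in wild-type hearts and 0.69, 0.44 and 0.87 TPM in homozygous hearts, a log2 change of -3.22 ± 0.17 (SE, n = 3 per group; limma adjusted p = 1.92e-05). Neither gene's groups came near to overlapping. The heterozygous hearts held 8.38 to 9.98 TPM of *Serpinb9* and 5.28 to 6.50 TPM of *Serpinb6b*. In GENCODE M21 on mm10, *Serpinb6b* lies at chr13:32965209-32979067 and *Serpinb9* at chr13:33003250-33017957, both on the forward strand and 24.2 kb apart.

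Of the 26 genes that rose, 5 with known roles in signalling are given first, a grouping made after the values were seen. *Sfrp5*, a secreted antagonist of Wnt signals known from the venous pole and epicardium of the fetal heart, measured 1.27, 1.83 and 1.55 TPM in wild-type hearts and 13.3, 13.7 and 6.69 TPM in homozygous hearts, a log2 change of 2.21 ± 0.25 (adjusted p = 0.00424). Homozygous replicate 3 was the lowest of its group and still far above every wild-type heart. *Robo1*, a receptor for Slit guidance proteins, rose from 3.24, 4.39 and 5.24 TPM to 12.4, 13.4 and 8.02 TPM (log2 change 1.202 ± 0.21, adjusted p = 0.0476). *Shisa2*, an inhibitor of Wnt and FGF signalling, rose by 1.18 ± 0.20 as deposited (adjusted p = 0.0476) and did not pass after scaling (adjusted p = 0.0766). *Mfng*, which glycosylates Notch receptors, rose by 1.03 ± 0.17 (adjusted p = 0.042), and *Rasgrp2*, an activator of Rap GTPases, by 0.71 ± 0.12 (adjusted p = 0.0476). *Rasgrp2* was the other gene that lost its call after scaling, at an adjusted p of 0.133.

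Enzymes, kinases and transporters made up a further group. *Arhgap36*, an inhibitor of protein kinase A, went from 0.54, 0.54 and 0.65 TPM in wild-type hearts to 5.77, 5.08 and 2.87 TPM in homozygous hearts, a log2 change of 1.78 ± 0.24 (adjusted p = 0.0131). It was low in every wild-type heart. *Gstp2*, a pi-class glutathione transferase, went from 6.39, 5.74 and 8.07 TPM to 22.5, 22.9 and 15.5 TPM (log2 change 1.45 ± 0.20, adjusted p = 0.0131), while its abundant close copy *Gstp1* measured 164 to 206 TPM in the wild type and 180 to 216 TPM in the mutant. Reads shared between these copies could be split between them by the counting. *Dgkk*, a diacylglycerol kinase, rose by 1.30 ± 0.21, and *Sbk3*, a member of a small kinase family, by 1.37 ± 0.19. *Slc2a3*, the glucose transporter GLUT3, measured 3.38, 3.56 and 3.84 TPM in the wild type and 7.83, 9.35 and 9.86 TPM in the mutant (log2 change 1.12 ± 0.15, adjusted p = 0.0128). *Sqrdl*, the mitochondrial enzyme that oxidises sulfide, rose by 1.13 ± 0.20, and the transporters *Slc37a3* and *Slc12a9* rose by 0.88 ± 0.15 and 0.85 ± 0.14.

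Nuclear proteins and genes of little known function completed the rise. *Zfp579*, a zinc-finger gene 12.3 kb from *Sbk3* on chromosome 7, measured 35.8, 30.5 and 36.8 TPM in wild-type hearts and 69.5, 94.2 and 73.5 TPM in homozygous hearts, a log2 change of 1.17 ± 0.13 (adjusted p = 0.00424). Of the other zinc-finger genes, *Zfp512b* rose by 0.996 ± 0.17 and *Zfp451*, a SUMO ligase, by 0.77 ± 0.13. *Mxd4*, a repressor that partners with MAX, rose by 0.72 ± 0.10, and *Mnd1*, a meiotic recombination factor, by 0.96 ± 0.16. *Map7*, which binds microtubules, rose by 1.04 ± 0.14, and *Mylip*, a ubiquitin ligase for lipoprotein receptors, by 1.01 ± 0.17. *Ccdc137*, *Smim24* and *Fam189b* rose by 1.30, 1.19 and 0.81. The non-coding genes *Gm20186* and *2510046G10Rik* rose by 2.30 ± 0.21 and 1.98 ± 0.29. *Gm20186* shares 81.4% of its exon bases with *Gm26809* on the other strand and *2510046G10Rik* 16.1% with *Sgf29*, and since the use of strand in counting is not given in the sources used here, the partners cannot be told apart.

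Of the 20 genes that fell, those known from muscle are given first, a grouping made after the values were seen. *Acta1*, skeletal alpha-actin, measured 71.1, 79.6 and 66.2 TPM in wild-type hearts and 36.2, 14.7 and 24.9 TPM in homozygous hearts, a log2 change of -1.56 ± 0.27 (adjusted p = 0.0476). *Casq1*, the skeletal form of the calcium store protein calsequestrin, went from 61.5, 68.1 and 84.2 TPM to 37.9, 20.6 and 25.3 TPM (log2 change -1.35 ± 0.23, adjusted p = 0.042). Homozygous replicate 1 was the highest of its group for both and lay below every wild-type heart. The 7 skeletal muscle markers summed to 236 to 286 TPM in wild-type hearts and 168 to 365 TPM in homozygous hearts, nearly all of it *Myl1*, and *Myog* stayed under 1 TPM in every library. The longer skeletal muscle list had 8 of 10 tested genes below the median of all genes, with its median 0.27 below. On both scales limma called 0 of them, with 1 at an unadjusted p under 0.05 as deposited and 3 after scaling. The part of skeletal muscle in the fall of *Acta1* and *Casq1* was not tested. *S100a1*, a calcium-binding protein that promotes calcium cycling in heart muscle, measured 295, 271 and 316 TPM in the wild type and 164, 164 and 156 TPM in the mutant (log2 change -0.86 ± 0.09, adjusted p = 0.00289). *Nmrk2*, a muscle kinase that makes NAD from nicotinamide riboside, went from 14.2, 13.5 and 16.5 TPM to 4.68, 3.83 and 5.17 TPM (log2 change -1.50 ± 0.19, adjusted p = 0.00764). With *S100a1* and *Nmrk2* the spread within each group was small beside the gap between groups.

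**Figure D3:**
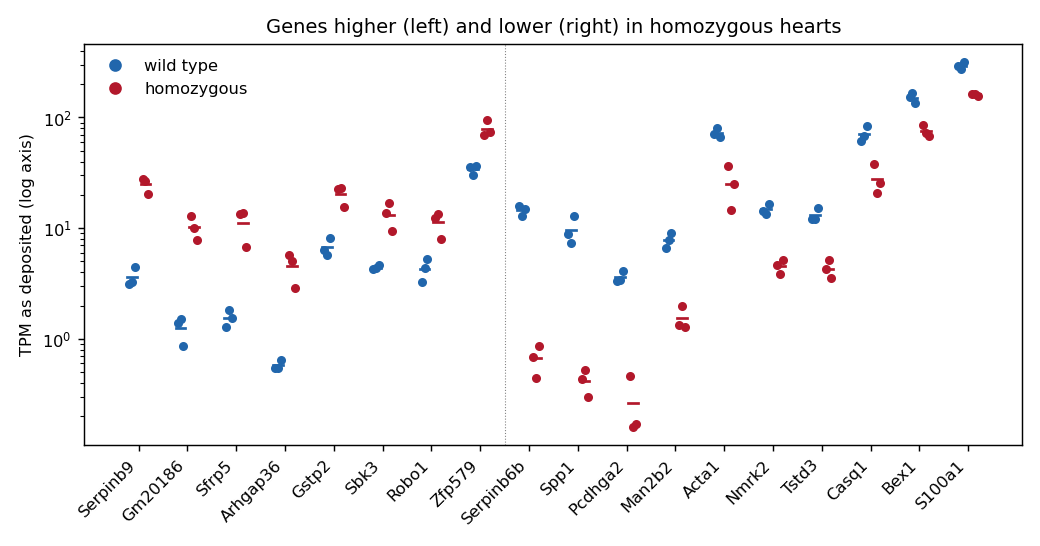
TPM as deposited, on a log axis, in the 3 wild-type (blue) and 3 homozygous (red) libraries for 8 genes that were higher and 10 that were lower in homozygous hearts. Dots are libraries and bars are group means. The groups do not overlap for any of the 18 genes, nor for any of the 46 genes called as deposited.

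The remaining genes that fell were of mixed function. *Spp1*, the secreted protein osteopontin, measured 8.90, 7.41 and 12.8 TPM in wild-type hearts and 0.43, 0.52 and 0.30 TPM in homozygous hearts, a log2 change of -2.89 ± 0.25 (adjusted p = 0.000845). The heterozygous hearts held 0.74 to 1.85 TPM of *Spp1*. *Man2b2*, an alpha-mannosidase, went from 6.62, 7.84 and 9.07 TPM to 1.32, 1.98 and 1.28 TPM (log2 change -1.81 ± 0.18, adjusted p = 0.00183), and *Tstd3*, a sulfurtransferase-like gene, from 12.0, 12.2 and 15.3 TPM to 4.24, 5.12 and 3.58 TPM (log2 change -1.42 ± 0.16, adjusted p = 0.00424). All homozygous values of both lay below all wild-type values. *Gstm6*, a mu-class glutathione transferase, fell by 1.52 on the log2 scale, *Opn4*, the photopigment melanopsin, fell by 1.39, and *Gltp*, which moves glycolipids between membranes, fell by 0.89. *Epdr1* fell by 1.13 and *Def8* fell by 1.12. On the X chromosome, *Bex1* fell by 0.99 and *Tceal7* fell by 1.52, but they share 223 exon bases on opposite strands, so reads of this stretch could count for either.

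For a few of the genes that fell, the table lists 0. The processed pseudogene *Gm13532* measured 30.3, 17.9 and 9.92 TPM in wild-type hearts and is listed at 0 in all 3 homozygous and all 3 heterozygous libraries. *Gm12854*, a processed pseudogene that lies within *Uqcrh* on chromosome 4, measured 8.32, 14.2 and 12.0 TPM in wild-type hearts, is listed at 0 in all homozygous libraries and stood at 2.64 to 6.17 TPM in heterozygous hearts. A listed 0 can be an estimate that assigned all shared reads to a parent gene, so no fold is given for either. *Gm13248* measured 4.49, 11.5 and 4.35 TPM in wild-type hearts and 0.30, 0 and 0.38 TPM in homozygous hearts. *Gm13139*, listed as *Zfp991* in RefSeq and a zinc-finger gene of a repeated family on chromosome 4, went from 3.91, 4.04 and 5.16 TPM to 1.04, 0.90 and 0.71 TPM.

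Promoter sequences were read for the called genes because the factor that carries the substitution binds DNA. A part of the CTCF consensus was searched on both strands of the 300 bases that run from 250 before to 50 after each RefSeq start, namely CC, any 3 bases, then AGGNGGC. The study places the substituted residue in a zinc finger assigned to the upstream part of the motif, which was not searched. The letters searched lie in the core part and were chosen after the values were seen. They occur in 3.43% of all 32851 RefSeq mouse promoters and in at least 1 promoter of 6.63% of the 10181 tested genes that have an entry. Of the 14 genes called lower as deposited with an entry, 5 hold them (35.7%), and of the 22 called higher, 3 do (13.6%: *Map7*, *Rasgrp2* and *Robo1*). Of the 161 called lower after scaling, 16 do (9.94%), and of the 33 called higher, 3 (9.09%). With AGNNGGC searched in place of AGGNGGC, where N is any base, 15.1% of the tested genes match. The shares are then 35.7% of the genes called lower as deposited and 22.7% of those called higher. After scaling they are 19.3% and 18.2%. The promoters of the 5 lower genes follow, from RefSeq on GRCm38.p6 (mm10), written 5′ to 3′ along the gene's own strand, with the matched letters in capitals. The match begins 74 bases before the start in *Serpinb6b*, 13 in *Man2b2*, 33 in *Def8*, 8 in *Gltp* and 164 in *Gstm6*. For *Def8* this start lies inside the gene, which begins at chr8:123423527 in GENCODE M21. A match is a description of the letters and not a bound site.
*Serpinb6b* promoter, chr13:32965011-32965310, forward strand: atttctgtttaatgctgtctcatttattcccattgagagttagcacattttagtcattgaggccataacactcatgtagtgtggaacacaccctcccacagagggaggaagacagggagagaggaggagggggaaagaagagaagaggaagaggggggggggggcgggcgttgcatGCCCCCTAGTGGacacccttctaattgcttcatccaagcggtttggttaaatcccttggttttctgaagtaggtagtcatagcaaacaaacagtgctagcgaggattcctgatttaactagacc
*Man2b2* promoter, chr5:36830600-36830899, reverse strand: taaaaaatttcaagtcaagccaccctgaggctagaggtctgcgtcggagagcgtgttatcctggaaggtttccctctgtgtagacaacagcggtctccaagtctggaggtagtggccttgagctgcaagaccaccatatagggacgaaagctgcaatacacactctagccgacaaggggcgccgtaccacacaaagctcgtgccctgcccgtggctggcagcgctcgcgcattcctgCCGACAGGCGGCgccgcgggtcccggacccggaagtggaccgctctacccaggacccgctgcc
*Def8* promoter, chr8:123443009-123443308, forward strand: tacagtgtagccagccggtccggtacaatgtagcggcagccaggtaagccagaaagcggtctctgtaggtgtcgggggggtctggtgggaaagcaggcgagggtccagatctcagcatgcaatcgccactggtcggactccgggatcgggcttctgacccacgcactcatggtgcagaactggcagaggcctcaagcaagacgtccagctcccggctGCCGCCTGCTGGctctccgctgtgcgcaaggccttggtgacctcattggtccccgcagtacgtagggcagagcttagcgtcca
*Gltp* promoter, chr5:114690886-114691185, reverse strand: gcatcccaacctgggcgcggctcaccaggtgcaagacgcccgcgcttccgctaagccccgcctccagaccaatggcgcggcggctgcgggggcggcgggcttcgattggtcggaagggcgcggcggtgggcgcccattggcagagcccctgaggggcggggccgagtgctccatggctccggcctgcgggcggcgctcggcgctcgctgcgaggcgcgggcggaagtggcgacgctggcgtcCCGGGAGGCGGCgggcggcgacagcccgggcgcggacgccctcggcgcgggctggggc
*Gstm6* promoter, chr3:107943685-107943984, reverse strand: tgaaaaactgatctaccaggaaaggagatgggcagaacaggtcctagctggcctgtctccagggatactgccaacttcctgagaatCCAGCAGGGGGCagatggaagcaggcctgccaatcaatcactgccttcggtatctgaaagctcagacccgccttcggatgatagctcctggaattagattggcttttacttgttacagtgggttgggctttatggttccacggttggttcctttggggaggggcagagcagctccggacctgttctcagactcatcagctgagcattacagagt

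Scaling added 202 genes to the calls, of which 186 were lower. Their levels were high: the 206 genes called lower after scaling included 203 that could be placed, with a median of 58.3 TPM over the 6 libraries, against 12.0 TPM for all placed genes. They were also shorter, with a median transcript length of 917 bases against 1356. Of the 944 genes of 100 TPM or more, 74 were called lower after scaling. The genes added at lower expression included *Gm29331* (-2.77 ± 0.56), whose exons lie entirely antisense to *Adcy6* and cannot be told apart from it, and *Gpnmb*, a glycoprotein of macrophages (-1.78 ± 0.28). *Cnn1*, calponin of smooth muscle, changed by -1.47 ± 0.30, *Ccl2*, a chemokine, by -1.15 ± 0.16, and *Cyp27a1*, a mitochondrial sterol hydroxylase, by -1.204 ± 0.19 on the scaled log2 values. *Aif1l*, *Tceal5*, *Dtd1*, *Ppa2*, *Zdhhc2*, *Pgam1-ps2*, *Scrn2* and *Slc16a3* completed the 12 lowest that the rule named, between -1.35 and -0.98.

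Among the 79 named genes that only scaling called, 5 kept the call whichever library was left out. The other genes that scaling added were not followed singly through these settings. *Slc16a3*, the lactate exporter MCT4, measured 76.1, 76.6 and 106 TPM in the wild type and 53.9, 52.0 and 47.2 TPM in the mutant as deposited, with a scaled log2 change of -0.98 ± 0.08 (adjusted p = 0.000745). *Kcne1*, a subunit of a repolarising potassium channel, measured 96.3, 98.2 and 125 TPM and 75.4, 70.7 and 58.3 TPM, with a scaled change of -0.88 ± 0.07 (adjusted p = 0.000785). For both, every homozygous heart lay below every wild-type heart even before scaling. *Ckb*, creatine kinase B, changed by -0.70 ± 0.07, *Higd1a*, a mitochondrial protein induced by hypoxia, by -0.69 ± 0.08, and *Fabp3*, the fatty acid carrier of heart muscle, by -0.62 ± 0.07. As deposited their adjusted p-values were between 0.0685 and 0.115.

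The 16 genes that scaling added at higher expression included 11 with a mean of at least 5 TPM, all of which are named here. *Spock2*, a matrix proteoglycan, measured 8.15, 6.94 and 6.85 TPM in wild-type hearts and 20.5, 29.0 and 12.9 TPM in homozygous hearts, with a scaled log2 change of 1.09 ± 0.22 (adjusted p = 0.0449). Its groups did not overlap as deposited, and a lack of overlap after scaling was part of the rule that named it. *Zscan2* rose by 0.96 ± 0.18, *Arrdc4*, which responds to glucose, by 0.83 ± 0.17, and *Rin2*, a Rab5 exchange factor, by 0.64 ± 0.13. *H6pd*, which makes NADPH in the endoplasmic reticulum, rose by 0.62, *Ogdhl*, a relative of oxoglutarate dehydrogenase, by 0.64, *Med13*, a Mediator subunit, by 0.49, and *Rev3l*, the catalytic subunit of a translesion polymerase, by 0.41. *Zmym6*, *Gdpd1* and *Zfp740* rose by 0.66, 0.55 and 0.43.

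Glycolysis was the energy pathway with the largest share of calls. Of its 25 tested genes, 11 were called lower after scaling, against 1.51% of all genes: *Aldoa*, *Eno3*, *Gapdh*, *Ldha*, *Pfkl*, *Pfkp*, *Pgam1*, *Pgk1*, *Pkm*, *Slc16a3* and *Tpi1*. As deposited 4 of the 25 were lower without overlap, against 2.37% of all genes, and 19 after scaling, against 12.8%. These shares over all genes are not matched for abundance. Of the 944 genes of 100 TPM or more, 74 were called lower after scaling, and most of the 11 called glycolysis genes were that abundant. *Gapdh* measured 4800, 4908 and 5276 TPM in wild-type hearts and 4534, 4567 and 3692 TPM in homozygous hearts, a scaled log2 change of -0.49 ± 0.09 (adjusted p = 0.0297) and an unscaled one of -0.23 ± 0.10 (adjusted p = 0.173). *Pkm* measured 703, 711 and 868 TPM and 710, 725 and 538 TPM, so its groups overlapped as deposited, and homozygous replicate 3 was the lowest for both genes. The list's median was 0.38 below that of all genes, 0.27 below its abundance class and 0.19 below all genes after quantile normalization.

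Respiratory chain genes encoded in the nucleus followed the same course. For complex I, 11 of 37 were called lower after scaling and 33 were lower without overlap, and for complexes II to V these figures were 9 and 37 of 44. Over all genes these shares were 1.51% and 12.8%, without matching for abundance. Of the 944 genes of 100 TPM or more, 74 were called lower after scaling. As deposited limma called 0 genes of either list, with 6 and 7 at an unadjusted p under 0.05. *Ndufs6*, an accessory subunit of complex I, measured 413, 388 and 428 TPM in wild-type hearts and 351, 331 and 313 TPM in homozygous hearts, with a scaled change of -0.56 ± 0.08 (adjusted p = 0.016). *Uqcrh* of complex III measured 1444, 1379 and 1418 TPM and 1179, 1137 and 1107 TPM, with a scaled change of -0.56 ± 0.10 (adjusted p = 0.0308). Neither gene's groups overlapped on either scale. The list medians were 0.34 and 0.33 below all genes, but 0.17 and 0.16 below their abundance classes, and 0.15 and 0.07 below all genes after quantile normalization. The 13 mitochondrially encoded genes lay 0.41 below all genes, yet only *mt-Co2* was lower without overlap, and after quantile normalization their median was 0.01 below. Fatty acid oxidation stood at -0.16 against all genes and -0.0005 against its abundance class, with 1 of 33 called lower after scaling. Creatine and NAD supply stood at -0.14 against all genes and -0.005 against its class, with 2 of 24 tested, *Ckb* and *Nmrk2*, called lower after scaling. Without homozygous replicate 3 these lists stood at -0.04 and -0.03 against all genes.

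The contractile apparatus showed the same dependence on the reference. Of 38 sarcomere genes, 8 were called lower after scaling, against 1.51% of all genes: *Acta1*, *Lmod3*, *Murc*, *Myl2*, *Myoz2*, *Smpx*, *Tnnc1* and *Tpm2*. *Myl2*, the ventricular regulatory light chain, measured 12729, 12155 and 13188 TPM in wild-type hearts and 11275, 10147 and 10100 TPM in homozygous hearts, with a scaled change of -0.53 ± 0.11 (adjusted p = 0.0495). Its groups did not overlap as deposited either, where the change was -0.27 ± 0.08 (adjusted p = 0.112). Of the 38, 9 were lower without overlap as deposited, against 2.37% of all genes, and 23 after scaling, against 12.8%. Here too the shares over all genes are not matched for abundance, and 74 of the 944 genes of 100 TPM or more were called lower after scaling. The list median was 0.30 below all genes, 0.13 below its abundance class and 0.01 below all genes after quantile normalization. Calcium handling genes other than *Casq1* and *S100a1* were not called. The median of the 27 was 0.14 below all genes and 0.04 below its abundance class. It was 0.02 below all genes after quantile normalization, and also without homozygous replicate 3. The release channel *Ryr2* and the pump *Atp2a2* had log2 differences of 0.32 and 0.06 as deposited and of 0.07 and -0.19 after scaling. Small heat shock proteins and chaperones of muscle stood 0.27 below all genes and 0.22 below their class. Of these, 3 of 18 tested, *Cryab*, *Hspb7* and *Hspb8*, were called lower after scaling.

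**Figure D4:**
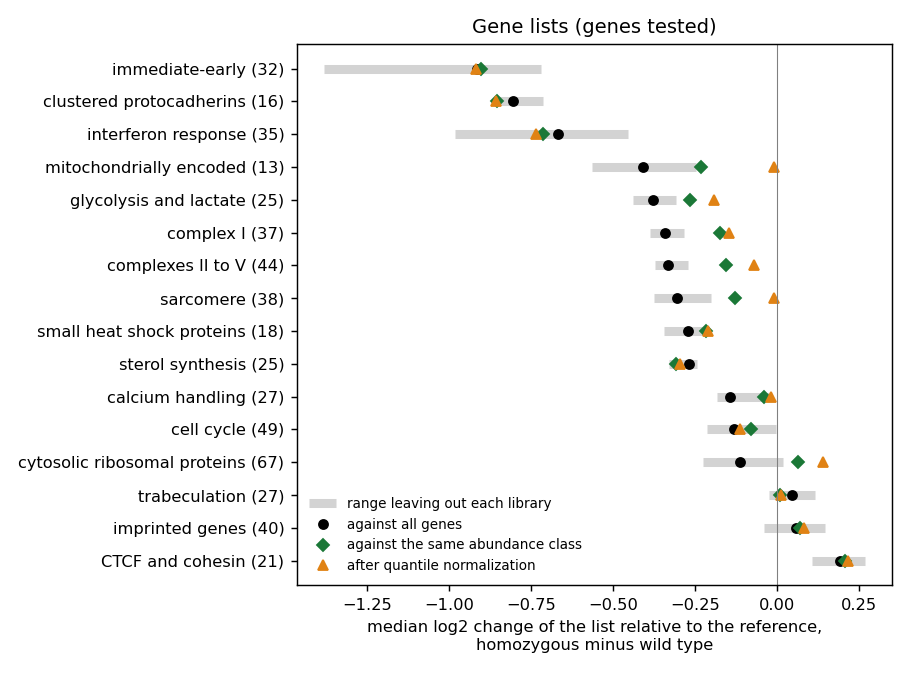
Median log2 change, homozygous minus wild type, of 16 gene lists relative to all tested genes (circles), to genes of the same abundance class (diamonds) and to all genes after quantile normalization (triangles), with the range when each library is left out (grey bars). Sarcomere and respiratory chain lists move towards 0 under the last 2 references, while immediate-early, protocadherin and interferon lists do not. The latter lists include members that averaged 1 TPM or more only in wild-type hearts.

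Other lists of the heart muscle differed in their distance from all genes. Cardiac transcription factors stood at -0.01, trabeculation genes at 0.05, intercalated disc genes at -0.08 and ion channels at 0.04. Of these *Kcne1* alone was called, 1 of 26 tested ion channel genes, where 1.51% of all genes were called lower after scaling. Load and hypertrophy markers stood at -0.25 against all genes and -0.18 against their abundance class. Of 22 tested, 4 were lower without overlap as deposited, where 2.37% of all genes were, and 8 after scaling, where 12.8% were. *Nppb*, the natriuretic peptide of stretched muscle, measured 911, 752 and 357 TPM in wild-type hearts and 306, 129 and 200 TPM in homozygous hearts, with an adjusted p of 0.0856 as deposited, and was picked here after its values were seen. Its groups did not overlap, and wild type replicate 3 lay nearest to the homozygous hearts.

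Immediate-early genes, which cells switch on within minutes of a stimulus, had the lowest median of the 40 lists apart from the lung list, at 0.92 below all genes. Of 32 tested, 30 lay below the median of all genes. After scaling 12 were lower without overlap, where 12.8% of all genes were, but *Ier3* alone was called. Of the 32, 3 averaged 1 TPM or more only in wild-type hearts and 1 only in homozygous hearts, so the median is a description. Together they came to 1689, 1295 and 519 TPM in the wild type and 502, 446 and 471 TPM in homozygous hearts. *Fos* measured 120, 63.5 and 3.26 TPM and 4.75, 1.96 and 2.22 TPM, and *Atf3* measured 109, 101 and 9.74 TPM and 8.79, 5.26 and 6.65 TPM. Wild type replicate 3 thus stood with the homozygous hearts, and wild type replicates 1 and 2, which also held the most red cell transcripts, stood apart. The adjusted p was 0.14 for *Fos* and 0.107 for *Atf3*, and the part of handling or blood in this pattern was not tested. *Fos* and *Atf3* were picked after their values were seen.

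Interferon response genes also had a low median in homozygous hearts. Together they came to 354, 273 and 523 TPM in the wild type and 168, 244 and 337 TPM in homozygous hearts, which overlap. Of 35 tested, 33 lay below the median of all genes. After scaling 15 were lower without overlap, where 12.8% of all genes were. *Mx2*, of an antiviral GTPase family but listed as a polymorphic pseudogene in GENCODE M21, was called after scaling at -1.38 ± 0.28 (limma adjusted p = 0.0449). The list stood 0.67 below all genes, and from 0.46 below without homozygous replicate 1 to 0.98 below without homozygous replicate 3. With a pseudocount of 5 it stood 0.38 below. Of the tested members, 5 averaged 1 TPM or more only in wild-type hearts and 1 only in homozygous hearts. The list median is therefore a description. The integrated stress response list stood at -0.17, with 1 of 23 tested genes, *Mthfd2*, called lower after scaling. The hypoxia list stood at -0.14, with 3 of 24 called lower after scaling, *Bnip3*, *Higd1a* and *Ldha*. Over all genes 1.51% were called lower after scaling. P53 targets stood at -0.11 and antigen presentation genes at -0.13. The 30 tested glutathione genes stood at -0.09, with *Gstp2* called higher and *Gstm6* lower on both scales. Over all genes 0.337% were called in either direction as deposited and 1.8% after scaling. The glutathione list stood at 0.06 without the pair of libraries that stood apart, and antigen presentation at 0.10 without homozygous replicate 1.

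**Figure D5:**
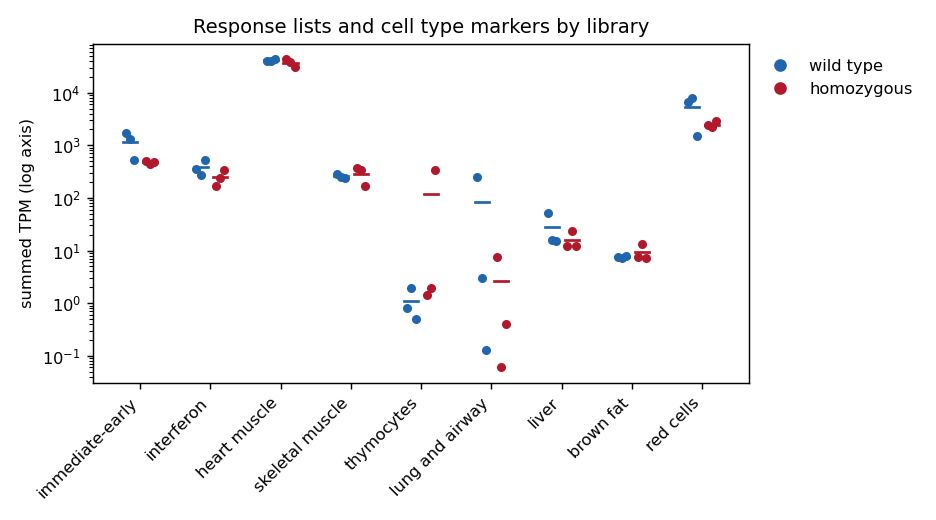
Summed TPM as deposited, on a log axis, of the immediate-early and interferon lists and of 7 sets of cell type markers in each wild-type (blue) and homozygous (red) library, with group means as bars. The thymocyte sum reaches 346 TPM in 1 homozygous library and the lung sum 249 TPM in 1 wild-type library, and for immediate-early genes 1 wild-type library lies with the homozygous ones.

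Among the cell type lists of the heart, macrophage and smooth muscle genes held the calls at lower expression, 3 of 30 and 3 of 27 after scaling, against 1.51% of all genes. Macrophage genes stood 0.22 below all genes, with *Spp1*, *Gpnmb* and *Ccl2* called. Of the 30 tested, 3 averaged 1 TPM or more only in wild-type hearts, *Spp1* and *Gpnmb* among them, and 2 only in homozygous hearts. Such genes passed the filter through the group where they were high, so the count of macrophage calls is a description. Of the 30 macrophage genes 19 lay below the median of all genes. As deposited 7 were higher and 3 lower without overlap, where 22.4% and 2.37% of all genes were. After scaling 3 were higher and 5 lower, where 9.58% and 12.8% of all genes were. Among the markers that were not called, picked after their values were seen, the scaled log2 differences went both ways. They were 0.46 for *Cx3cr1* and 0.16 for *Csf1r*, and -0.09 for *C1qa*, -0.35 for *Aif1* and -1.16 for *Cd14*. The part of macrophage number in the fall of *Spp1*, *Gpnmb* and *Ccl2* was not tested. Without wild type replicate 1 and homozygous replicate 3 the list median was 0.01 below all genes, while *Spp1* was called in every setting. Smooth muscle genes stood at -0.22 against all genes, at -0.10 against their abundance class and at -0.10 without the pair of libraries that stood apart, with *Cnn1*, *Myl9* and *Tpm2* called. Epicardial and fibroblast genes stood at -0.11 with *Sfrp5* called higher, and at 0.16 without the pair of libraries that stood apart. Endothelial genes stood at -0.02, red cell genes at -0.11 and genes of Schwann cells and neurons at -0.01. Thymocyte genes stood 1.33 above all genes and 0.26 below them without homozygous replicate 3. Lung genes stood 1.37 below all genes and 0.02 above them without wild type replicate 1. Of the 18 tested thymocyte genes, 15 averaged 1 TPM or more only in homozygous hearts. Of the 9 tested lung genes, 4 did so only in wild-type hearts. The filter thus favoured the direction of both medians, which are descriptions. Liver genes stood at -0.34 and, without wild type replicate 1, at 0.36, and brown fat genes at -0.18.

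Clustered protocadherins, neuronal adhesion genes whose alternative promoters are chosen with CTCF, had a low median in homozygous hearts, but their summed level overlapped between the groups. The sum over the 52 members in the table was 73.6, 81.4 and 95.2 TPM in the wild type and 80.7, 89.5 and 50.1 TPM in homozygous hearts. Of 57 listed, 16 reached the expression needed for a test, all of them from the gamma cluster on chromosome 18. Of these, 4, *Pcdhga2* among them, averaged 1 TPM or more only in wild-type hearts and 1 only in homozygous hearts, so the median over the tested members is a description. *Pcdhga2* measured 3.36, 3.37 and 4.07 TPM in wild-type hearts and 0.46, 0.16 and 0.17 TPM in homozygous hearts, a log2 change of -1.87 ± 0.21 (adjusted p = 0.00424), and stood at 2.08 to 2.58 TPM in heterozygous hearts. *Pcdhga10*, *Pcdhga7*, *Pcdhgb6* and *Pcdhgb7* were also called after scaling, between -1.26 and -0.77. Not all moved down: *Pcdhgb4* and *Pcdhgb1* were higher without overlap, at 0.93 and 0.44 after scaling, though not called. The list median was 0.81 below all genes and lay between 0.71 and 0.85 below whichever library was left out, but 0.18 below among members with a mean of at least 5 TPM. Gamma cluster genes share their last exons, so 45.1% of the exon bases of *Pcdhga2* belong to other members too, and reads from these exons could be credited to any of them.

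Among lists of imprinted, growth and synthesis genes, the cell cycle list alone held calls. Imprinted genes, whose best known control region at *Igf2* and *H19* contains CTCF sites, stood 0.06 above all genes, and *Igf2* and *H19* had log2 differences of 0.32 and 0.31 as deposited and of 0.06 and 0.05 after scaling. Insulin-like growth factor signalling stood at 0.01. The 3 tested Hox genes stood at -0.27, but leaving out wild type replicate 1 brought them to 0.09, and leaving out the pair of libraries that stood apart to 0.20. Cell cycle genes stood at -0.13, with 2 of 49 tested, *Ube2c* and *Ccna2*, called lower after scaling, where 1.51% of all genes were. Sterol synthesis genes stood 0.27 below all genes and 0.31 below their abundance class. Ribosomal protein genes stood at -0.11 against all genes, at 0.06 against their class and at 0.14 after quantile normalization, so their direction turned with the reference. The skeletal muscle list stood at -0.27.

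The called genes were then placed on the genome, with no test of their spacing. Of the 248 genes called on either scale 245 could be placed, and 65 of them (26.5%) had another called gene within 500 kb, against 21.4% of the 13547 placed genes. Of the 55 neighbouring pairs 45 fell together, a count to be read beside the 203 of the 245 placed genes that were lower. Many of these pairs lay within single clusters. Such clusters were the protocadherins, which share exons, and on the X chromosome *Bex1*, *Bex4*, *Tceal5*, *Tceal7* and *Tceal8*. *Sbk3* and *Zfp579* were the pair that rose together. Besides *Serpinb6b* and *Serpinb9*, 8 pairs went opposite ways, such as *Bag2* and *Zfp451*, 3.8 kb apart, *Ccdc137* and *Mrpl12*, 20.3 kb apart, and *Nmrk2* and *Smim24*, 191 kb apart. By chromosome, the share of tested genes called on either scale was highest on chromosome 4, with 26 of 859 (3.03%). On chromosome 8, which carries *Ctcf*, 9 of 715 were called (1.26%), all lower, and the pair called as deposited, *Def8* and *Acta1*, lay 17.8 and 18.3 Mb from *Ctcf*. Exon bases shared with another gene were found for 14 of the 46 genes called as deposited, on the opposite strand for 12 of them. Apart from those given above, the shares were 18.8% for *Spp1* with *Gm42793* on the same strand, 17.4% for *Tstd3* with *Ccnc* and 14.6% for *Nmrk2* with *Atcayos*, both on the opposite strand, and at most 8.0% for the others.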

How the data were processed

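Poly-A RNA from hearts of late-gestation mouse embryos had been sequenced, and groups were taken from the sample titles. By the study's methods, the authors used Trim Galore (v0.6.10) for trimming, STAR (v2.7.4a) for alignment to mm10 and RSEM (v1.2.28) for abundance. They deposited TPM per gene, which keeps no depth, so counting error is unknown and precision rests on the 3 libraries per group. The annotation and the use of strand are not given in the sources used here. The study tested genes with DESeq2, which needs counts and was not run.

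The 26 symbols that had become dates, at most 0.0921% of a library, were dropped. Values were analysed as log2(TPM + 1), so changes of weakly expressed genes are understated. In R (v4.3.3), limma (v3.58.1) fitted a model of the 3 genotypes to the 9 libraries (trend, Benjamini-Hochberg adjustment over the 13657 genes, two-sided), as deposited and after median-ratio scaling. The median SE was 0.18. The procedure was tested on simulated data.

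The comparison, its members and the 40 gene lists were chosen with earlier results of these data known. Genes were named if called as deposited, if among the 12 highest or 12 lowest of those called only after scaling (mean of at least 5 TPM, no overlap; 11 were eligible at higher expression), or if list members called on either scale, and *Ctcf* always. Other genes were picked after their values were seen. Positions came from GENCODE M21 for 99.2% of tested genes, 312 of them through older symbols in RefSeq. List medians are differences from the median of all genes tested unless another reference is given. The alternatives were other scalings, pseudocounts, filters, libraries, weights and covariates.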

Additional observations from a re-analysis of the deposited data

How the results depend on the processing

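Against the 46 genes called as deposited, median-ratio scaling gave 246, quantile normalization 73, no filter on low values 22, the 6 compared libraries alone 17 and sample weights 8753, where the weights did not converge. Against the 246 called after scaling, deposited values gave 46, no filter 124, the 6 libraries alone 20, no mean-variance trend 147, sample weights 809, and leaving out wild type replicate 1 with homozygous replicate 3 gave 64. Leaving out single libraries gave 13 to 2171 and 29 to 418. The other settings stayed within 1.5 times of each count, namely pseudocounts of 0.1 and 5, a mean of at least 5 TPM and sex as a covariate for both, and for the deposited count also a total without mitochondrially encoded and haemoglobin genes, no trend and the same pair left out. None of the 2599 values computed for named genes under these alternatives changed sign, and 1232 of those called in the first place lost the call.

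Replicate numbers did not pair the libraries: deviations from the group means correlated at 0.06, 0.04 and -0.04 between same-numbered wild-type and homozygous libraries, and not every library correlated best with its own number. With the replicate number as a block, 19 genes were called as deposited and 82 after scaling.

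The precision is limited by 3 libraries per group, by unknown depth, and by a shift between genotypes that varied with abundance and library pair. Values for genes under about 5 TPM depend most on the pseudocount: the log2 change of *Arhgap36*, for example, ran from 0.77 to 2.73 over its settings.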
